A study of Mus musculus with 2 samples.

Results

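The 10 genes described here encode myosin light chains, small proteins of the calmodulin family that wrap around the lever arm of the myosin heavy chain. They were taken by symbol from 55536 genes of the annotation: Myl1, Myl3, Myl4, Myl6 and Myl6b encode essential light chains, and Mylpf, Myl2, Myl9, Myl12a and Myl12b encode regulatory light chains. Total RNA was sequenced from gastrocnemius, the calf muscle, of 2 adult female B6CASTF1/J mice, hybrids of the B6 and CAST strains, aged 8 to 10 months. The animals form a single group: replicate 2 is the mouse that the labels number 3, and replicate 1 is the mouse numbered 1. Both carry the same donor identifier but come from separate tissue samples and were counted as separate animals. The libraries, made from 300 ng of RNA with ERCC spike-ins, held 43301418 expected counts in replicate 2 and 42605802 in replicate 1. Without a second group there is no comparison of conditions and no p-value, and errors are standard deviations over the animals (SD, n = 2).

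Each myosin head carries an essential and a regulatory light chain. Essential chains stiffen the lever arm and tune the speed of shortening. Regulatory chains are phosphorylated on a serine near the amino end by myosin light chain kinases, which potentiates force in striated muscle and switches the motor on in smooth muscle and non-muscle cells. In skeletal muscle, fast fibres use Myl1 and Mylpf, slow fibres use the chains Myl3 and Myl2 that also serve the cardiac ventricle, and Myl4 is the embryonic and atrial essential chain. Myl6, Myl6b, Myl9, Myl12a and Myl12b belong to smooth muscle and non-muscle myosins, and Myl6b has also been described in slow skeletal muscle.

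Fast skeletal muscle is known to make its essential chains from a single gene. Myl1 yields the long chain MLC1f from an upstream start and the short chain MLC3f from a downstream start, and the chains differ at the amino end. The start of each coding sequence is shown because the transcript results on Myl1 turn on this difference. The sequences were read 5′ to 3′ from GENCODE transcripts of GRCm38, the assembly also called mm10, on the minus strand, and the first 24 bases of the earliest exon common to both are in capitals. The long form lies within chr1:66930306-66944905 and has 142 coding bases before that exon, while the short form lies within chr1:66930306-66935278 and has 28.
long chain (Myl1-201): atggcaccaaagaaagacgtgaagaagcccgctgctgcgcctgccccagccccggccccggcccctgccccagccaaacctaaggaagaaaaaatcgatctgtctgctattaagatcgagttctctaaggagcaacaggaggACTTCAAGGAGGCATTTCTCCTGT
short chain (Myl1-202): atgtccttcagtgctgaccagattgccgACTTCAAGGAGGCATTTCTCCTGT

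The 5 regulatory chains are shown from the start codon past the codon of the phosphorylated serine, in capitals, to show how closely Myl12a and Myl12b match at the site that the kinases act on. They come from the same annotation of GRCm38, within chr7:127211761-127212917 for Mylpf, chr5:122101027-122101802 for Myl2 and chr2:156778545-156778616 for Myl9, all on the plus strand. Those of Myl12a and Myl12b lie on the minus strand, within chr17:70996809-70996880 and chr17:70977160-70977231. Counting from the start codon, the serine codon is number 16 in Mylpf, 15 in Myl2 and 20 in Myl9, Myl12a and Myl12b.
Mylpf: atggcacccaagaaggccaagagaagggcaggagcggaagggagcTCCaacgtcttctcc
Myl2: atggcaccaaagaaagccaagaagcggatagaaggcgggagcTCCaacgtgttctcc
Myl9: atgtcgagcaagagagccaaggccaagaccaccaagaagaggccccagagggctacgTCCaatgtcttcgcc
Myl12a: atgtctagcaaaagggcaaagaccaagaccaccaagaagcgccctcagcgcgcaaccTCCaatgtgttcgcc
Myl12b: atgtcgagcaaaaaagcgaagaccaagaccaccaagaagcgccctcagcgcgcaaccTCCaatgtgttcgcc

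Over the whole coding sequence, Myl12a and Myl12b were identical at 96.5% of 516 aligned bases. Myl9 was identical to Myl12a at 85.7% and to Myl12b at 86.4%. The fast and slow regulatory chains Mylpf and Myl2 were identical at 70.3% of aligned bases, and the fast and slow essential chains Myl1 and Myl3 at 71.6%. Of the runs of 31 coding bases in Myl12a, and likewise in Myl12b, 59.3% also occurred in another light chain gene, against 5.20% in Myl6, 3.72% in Myl6b, 1.03% in Myl9 and 0 in Myl1, Mylpf, Myl2, Myl3 and Myl4.

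Levels are given in TPM, an abundance per transcript length and per library. The gene and transcript values called the first quantification were made from transcriptome alignments, and those called the second directly from reads. All 10 genes reached 1 TPM in both animals. Their sum was 23386 TPM in replicate 2 and 26180 TPM in replicate 1, which was 5.40% and 5.43% of all nuclear protein-coding TPM. By reads rather than per length, the 10 genes took 0.968% of expected counts in replicate 2 and 0.980% in replicate 1. TPM totals also held abundant 7SL RNA, 33.6% for replicate 2 and 27.0% for replicate 1. Summed, nuclear protein-coding genes had 432838 TPM in replicate 2 and 482319 TPM in replicate 1, a shift that the SDs of TPM include.

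The fast pair held nearly all of the light chain RNA. Mylpf, the fast regulatory chain (ENSMUSG00000030672.12, chr7:127208890-127214298, plus strand), stood at 13503 TPM in replicate 2 and 14835 TPM in replicate 1. Its mean of 14169 ± 942 TPM was rank 4 among 21938 nuclear protein-coding genes and 57.2 ± 0.759% of light chain TPM. Myl1, the fast essential chain (ENSMUSG00000061816.15, chr1:66924295-66945404, minus strand), stood at 8885 TPM in replicate 2 and 10343 TPM in replicate 1, rank 9 by its mean. Mylpf was higher than Myl1 in both animals, by 1.52-fold in replicate 2 and 1.43-fold in replicate 1. The direction turned with expected counts, of which Mylpf had 191961 in replicate 2 and 189824 in replicate 1, while the longer Myl1 transcripts had 205789 and 208744.

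The slow pair followed far below. Myl2, the slow regulatory chain (ENSMUSG00000013936.12, chr5:122100951-122113472, plus strand), stood at 422 TPM in replicate 2 and 418 TPM in replicate 1. Myl3, the slow essential chain (ENSMUSG00000059741.13, chr9:110741861-110769798, plus strand), stood at 353 TPM in replicate 2 and 318 TPM in replicate 1. By TPM of the first quantification Myl2 was above Myl3 in both animals, with a ratio of 1.19 in replicate 2 and 1.31 in replicate 1. The direction turned with expected counts, where the ratio was 0.675 in replicate 2 and 0.748 in replicate 1. The second quantification gave Myl2 694 TPM in replicate 2 and 697 TPM in replicate 1, 1.66 times its mean in the first, while Myl3 differed little between the quantifications.

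Myl4, the embryonic and atrial chain (ENSMUSG00000061086.12, chr11:104550663-104595753, plus strand), was the lowest of the 10, with 3.48 TPM in replicate 2 and 3.64 TPM in replicate 1. Its counts were 81 in replicate 2 and 68 in replicate 1. Among heart markers, Myl7, the atrial regulatory chain, had a count of 0 in replicate 2 and 1 in replicate 1, and Nppa, the atrial natriuretic peptide, had counts of 4 in replicate 2 and 2 in replicate 1. Myh6, the cardiac alpha heavy chain, was the highest heart marker, at 53.2 TPM in replicate 2 and 55.9 TPM in replicate 1, or 21.1 and 20.6 TPM by the second quantification. Tnnt2, cardiac troponin T, stood at 1.68 TPM in replicate 2 and 1.83 TPM in replicate 1. Myl10, a regulatory chain of lymphoid and other cells, had counts of 8 in replicate 2 and 14 in replicate 1. A count of 0 allows up to 3 counts, a CPM of 0.0693 in replicate 2, where Myl7 had none, and this limit covers counting error only.

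Among the smooth muscle and non-muscle chains, Myl12a was the highest. Myl12a, a non-muscle regulatory chain (ENSMUSG00000024048.15, chr17:70993656-71002878, minus strand), stood at 135 TPM in replicate 2 and 159 TPM in replicate 1. Myl6, the main non-muscle and smooth muscle essential chain (ENSMUSG00000090841.2, chr10:128490860-128494145, minus strand), stood at 51.6 TPM in replicate 2 and 63.0 TPM in replicate 1. Myl9, the smooth muscle regulatory chain (ENSMUSG00000067818.6, chr2:156775420-156781658, plus strand), stood at 11.6 TPM in replicate 2 and 15.3 TPM in replicate 1. The order of these genes was the same in both animals, and Myl12a exceeded Myl9 at least 10-fold in each. Myl6b, the other essential chain of this group (ENSMUSG00000039824.4, chr10:128494157-128498685, minus strand), lies directly upstream of Myl6 on the same strand and had 3.59 TPM in replicate 2 and 4.61 TPM in replicate 1.

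Myl12b, the near copy of Myl12a (ENSMUSG00000034868.9, chr17:70973133-70990890, minus strand), stood at 17.7 TPM in replicate 2 and 20.7 TPM in replicate 1. By the second quantification it stood at 7.67 TPM in replicate 2 and 9.65 TPM in replicate 1, so the mean of the first was 2.22 times that of the second. The symbol Myl12b also names an overlapping locus, ENSMUSG00000117098.1, to which the first quantification assigned 111 counts in replicate 2 and 59.4 in replicate 1, and the second none. Levels of Myl12b are therefore uncertain. The posterior SD of its count, a measure of how reads were shared between genes, was 4.93% of the mean in replicate 2 and 7.66% in replicate 1, against 0.633% and 0.423% for Myl12a.

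Ordered by mean TPM, the genes ran Mylpf, Myl1, Myl2, Myl3, Myl12a, Myl6, Myl12b, Myl9, Myl6b and Myl4. Between neighbours in this order, only the last, Myl6b and Myl4, had values over the animals that overlapped, with means of 4.10 ± 0.721 and 3.56 ± 0.113 TPM. The largest step lay between Myl1 and Myl2, 22.9-fold. The second quantification exchanged Myl12b with Myl9 and Myl6b with Myl4 and kept the other places. Of the 10 genes, 2, Myl2 and Myl12b, had means at least 1.5-fold apart between the quantifications, beside 5.88% of 11125 genes tested.

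**Figure D1:**
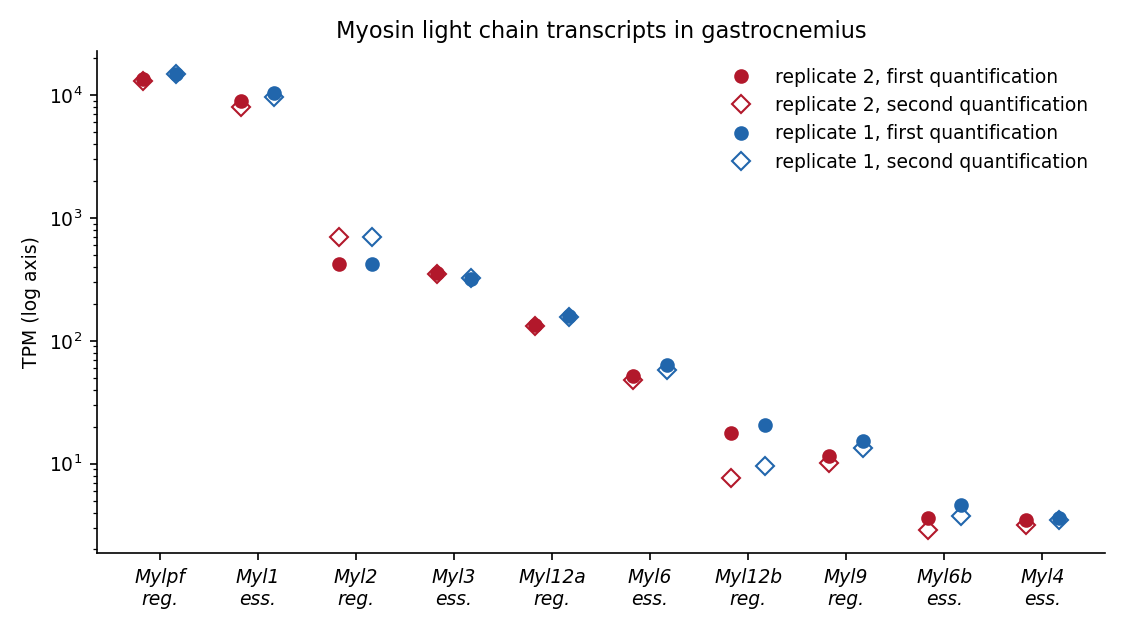
TPM (log axis) of each light chain gene in replicate 2 (red) and replicate 1 (blue), by the first quantification (filled circles) and the second (open diamonds); ess. is essential, reg. is regulatory, and each marker is 1 library. Mylpf and Myl1 lie above all other members by either quantification, and the quantifications part at Myl2 and Myl12b.

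The essential chains together had less RNA per length than the regulatory chains. They summed to 9297 TPM in replicate 2 and 10732 TPM in replicate 1, against 14089 and 15448 TPM for the regulatory chains, a ratio of 0.660 in replicate 2 and 0.695 in replicate 1 (mean 0.677 ± 0.0246). With expected counts in place of TPM the ratio was 1.08 ± 0.0140, so its side of 1 changed. With only the transcripts annotated as protein coding it was 0.938 ± 0.00529, and by the second quantification 0.623 ± 0.0166.

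The choice of transcripts bore most on the regulatory side. Among the fast genes, coding transcripts of Mylpf summed to 8789 TPM in replicate 2 and 10212 TPM in replicate 1, against 8231 and 9546 TPM for Myl1. Their ratio was 1.07 ± 0.00146, compared with 1.48 ± 0.0603 when all transcripts were counted. Coding transcripts of Myl2 summed to 230 TPM in replicate 2 and 237 TPM in replicate 1, against 352 and 317 TPM for Myl3. The ratio of Myl2 to Myl3 was 0.700 ± 0.0646 over coding transcripts and 1.25 ± 0.0849 over all transcripts, so which slow chain was higher depended on this choice, as it did on the use of TPM or counts.

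Fast chains exceeded slow chains in both animals under each way of counting. Myl1 and Mylpf summed to 22388 TPM in replicate 2 and 25178 TPM in replicate 1, and Myl3 and Myl2 to 775 and 736 TPM. The fast sum was 28.9 times the slow sum in replicate 2 and 34.2 times in replicate 1 (mean 31.5 ± 3.76). The second quantification, with its higher Myl2, gave 22.1 ± 2.83.

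Slow shares were computed within each kind of chain. Myl3 made up 3.82% of the Myl3 and Myl1 sum in replicate 2 and 2.99% in replicate 1 (mean 3.41 ± 0.594%). Myl2 made up 3.03% of the Myl2 and Mylpf sum in replicate 2 and 2.74% in replicate 1 (mean 2.88 ± 0.204%). Myh7, the slow heavy chain, made up 2.36% of the sum of Myh7, Myh1, Myh2 and Myh4 in replicate 2 and 2.17% in replicate 1 (mean 2.26 ± 0.132%). All 3 shares were higher in replicate 2, also by the second quantification, which put the regulatory share at 5.09% in replicate 2 and 4.45% in replicate 1. Within an animal the essential share exceeded the regulatory share in the first quantification, and the second quantification reversed that order.

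**Figure D2:**
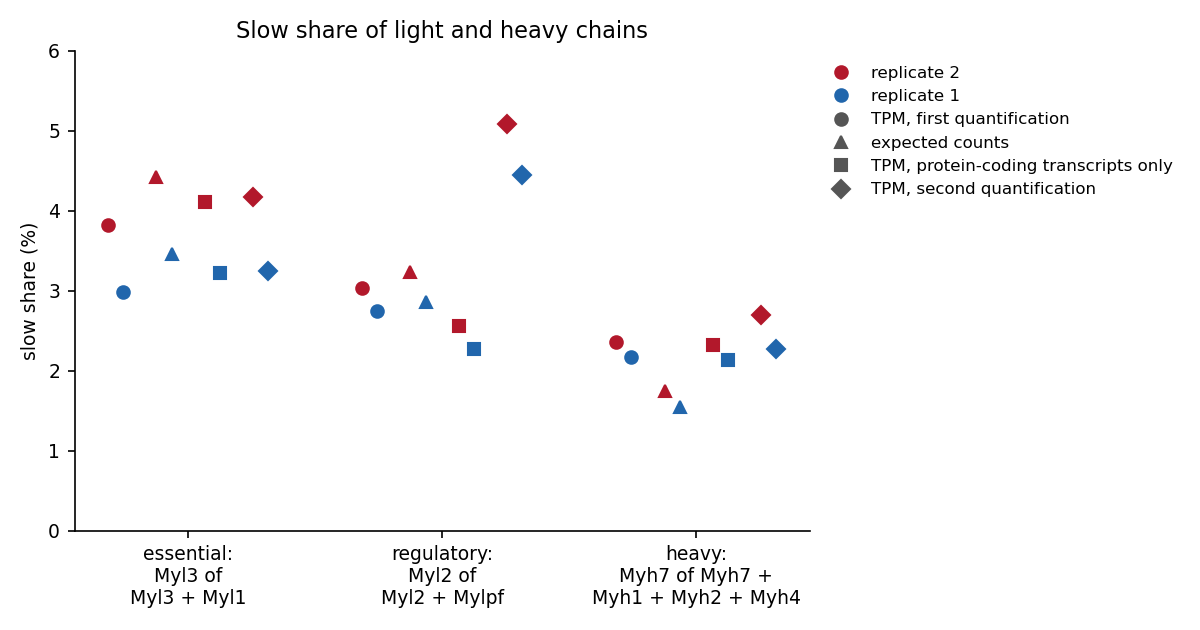
Slow share (percent) among essential, regulatory and heavy chains in replicate 2 (red, left of each pair) and replicate 1 (blue), with a marker shape for each way of counting. In each pair the red marker is the higher, and the regulatory share moves most between the ways of counting, with means between 2.41% and 4.77%.

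Sarcomeric chains (Myl1, Mylpf, Myl2, Myl3 and Myl4) outweighed the smooth muscle and non-muscle chains by 106-fold in replicate 2 and 98.6-fold in replicate 1 (mean 102 ± 4.92). The smooth muscle and non-muscle chains summed to 219 TPM in replicate 2 and 263 TPM in replicate 1. In bulk tissue, fewer cells of a type and less RNA per cell cannot be told apart, and no cell type can be assigned to these transcripts. Markers of cell types other than muscle fibres were detected to differing extents. Of the smooth muscle markers, 6 of 7 reached 1 TPM in both animals, summing to 170 TPM in replicate 2 and 172 TPM in replicate 1. Synpo2, which striated muscle also expresses, gave 108 and 102 TPM of this sum. Without Synpo2 the smooth muscle sum was 62.1 TPM in replicate 2 and 69.6 TPM in replicate 1. All 5 endothelial markers were detected and summed to 44.6 TPM in replicate 2 and 53.5 TPM in replicate 1. At the same limit, 6 of 6 fibroblast and 4 of 4 pericyte markers were detected. So were 3 of 5 Schwann cell, 1 of 3 white blood cell and 0 of 3 satellite cell markers. The part of these cell types in the levels of the non-muscle chains was not tested.

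A myosin head pairs its heavy chain with a light chain of each kind, so the sums were set against the heavy chains. The 10 sarcomeric heavy chain genes summed to 13428 TPM in replicate 2 and 15032 TPM in replicate 1, of which Myh4, the heavy chain of the fastest fibres, gave 11440 and 13047 TPM. Sarcomeric light chains exceeded them 1.73-fold in replicate 2 and 1.72-fold in replicate 1. Regulatory chains stood at 1.04 times the heavy chains in replicate 2 and 1.01 times in replicate 1, and essential chains at 0.688 and 0.709 times. By the second quantification the regulatory ratio was 1.30 ± 0.00795 and the essential ratio 0.814 ± 0.0268, so by TPM the regulatory ratio was the higher in each quantification. These ratios take TPM over all transcripts and were not recomputed with coding transcripts or expected counts. For the 10 light chain genes, essential over regulatory chains gave 0.938 with coding transcripts only and 1.08 with expected counts. Non-muscle and smooth muscle light chains exceeded the heavy chains Myh9, Myh10, Myh11 and Myh14 by 5.11-fold in replicate 2 and 4.82-fold in replicate 1, a wider margin than in the sarcomere.

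Most of the Myl1 TPM was assigned to transcripts with the downstream start. The annotation holds 8 Myl1 transcripts, of which 3 start at or above the start of Myl1-201. Another 4 start downstream and carry an exon of 25 bases, and these are called the downstream transcripts. The remaining transcript, Myl1-208, starts further downstream, at 10445 bases, but was set apart because it does not hold that exon as a separate exon. Myl1-208 is 1 of 3 not annotated as protein coding. In the first quantification the downstream transcripts held 83.8% of Myl1 TPM in replicate 2 and 84.0% in replicate 1, and the upstream transcripts 14.3% and 14.2%. The second quantification gave the downstream transcripts 82.5% in replicate 2 and 82.4% in replicate 1, and the upstream ones 17.4% and 17.5%. Shares of TPM by start therefore moved by less than 4 percentage points between quantifications and by less than 1 between animals. With expected counts of the first quantification the mean shares were 80.1% downstream and 19.3% upstream.

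The quantifications disagreed on which downstream transcript was present. Myl1-202, which encodes the short chain of 150 codons printed above, held 78.3% of Myl1 TPM in replicate 2 and 78.1% in replicate 1 in the first quantification, or 6953 and 8077 TPM. In the second quantification it was listed at 0 in replicate 2 and at a trace in replicate 1, and Myl1-207 held 82.4% and 82.3%. Myl1-207 starts 9506 bases downstream of the Myl1-201 start, against 9789 for Myl1-202, carries the same exon of 25 bases, and has an annotated reading frame of 92 codons. Myl1-201, the long chain of 188 codons, which carries an exon of 28 bases in place of that of 25, held 14.1% in replicate 2 and 14.0% in replicate 1 in the first quantification. In the second it held 13.3% in replicate 2 and 11.4% in replicate 1, and Myl1-206, another upstream transcript, took 4.10% in replicate 2 and 6.0% in replicate 1. Shares of Myl1 can therefore be compared by start, but not by single transcript. The groups by start are not the same as long and short chain RNA. The downstream group also holds transcripts other than the short chain of 150 codons, Myl1-207 among them.

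Myl1-204, annotated as a processed transcript, holds the exons of both 25 and 28 bases and starts downstream. It took 5.45% of Myl1 TPM in replicate 2 and 5.80% in replicate 1 in the first quantification and was listed at 0 in the second. Leaving it out changed the mean downstream share to 82.9%, compared with 83.9% when it was kept.

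**Figure D3:**
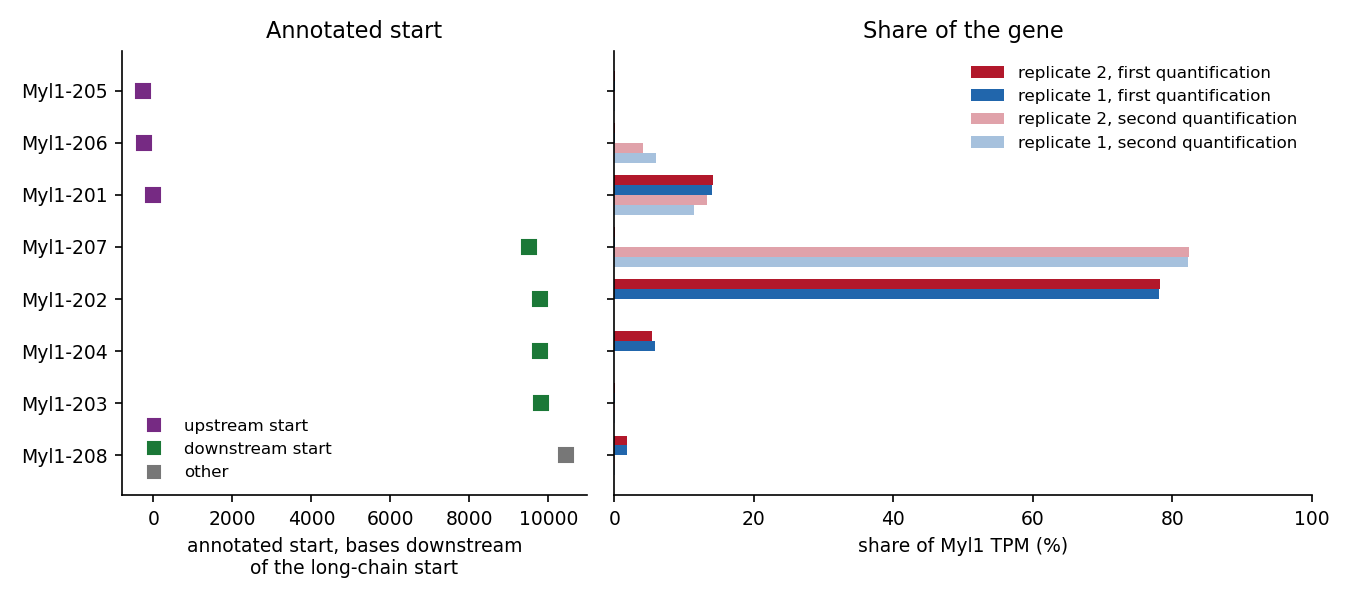
Left, the annotated start of each Myl1 transcript in bases downstream of the Myl1-201 start; right, its share of Myl1 TPM (percent) in replicate 2 (red) and replicate 1 (blue), by the first quantification (dark bars) and the second (pale bars). Most of the share falls on Myl1-202 in the first quantification and on Myl1-207 in the second, both with a downstream start.

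The most abundant transcript depended on the quantification for most other members too. Of the 8 light chain genes with several transcripts and at least 10 TPM, 6 did not have the same leading transcript in both animals and both quantifications, beside 26.5% of 3986 nuclear protein-coding genes chosen by the same criteria. These 6 were Myl1, Mylpf, Myl2, Myl6, Myl12a and Myl12b. Only 1 of the 8, Myl6, differed in its leading transcript between the animals in the first quantification, beside 7.58% of the 3986 genes. Myl3 and Myl9 kept theirs: Myl3-201 held 99.4% in replicate 2 and 99.8% in replicate 1 of its gene in the first quantification and 77.2% and 76.2% in the second.

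Mylpf was divided among 3 transcripts. Mylpf-206, with 149 codons and an upstream first exon, held 49.0% in replicate 2 and 52.5% in replicate 1 in the first quantification. Mylpf-201, the form of 169 codons whose start is printed above, held 16.1% in replicate 2 and 16.4% in replicate 1 there. It led the second quantification with 43.7% in replicate 2 and 47.8% in replicate 1. The rest was mainly Mylpf-203, a retained-intron model of 285 bases, which held 34.3% of TPM in replicate 2 and 30.4% in replicate 1 but 14.4% and 12.3% of the gene's expected counts. A short model weighs more in TPM than in counts, and Mylpf-203 held 4635 TPM in replicate 2 and 4514 TPM in replicate 1 of the level given for Mylpf.

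Myl2 was divided between a coding and a non-coding model. Myl2-201, the full form of 166 codons, held 54.3% in replicate 2 and 56.2% in replicate 1 in the first quantification and was listed at about 0 in the second. Myl2-210, a processed transcript of 467 bases that starts within the gene, held 45.4% in replicate 2 and 43.3% in replicate 1 in the first quantification. It held 59.6% in replicate 2 and 58.6% in replicate 1 in the second. Most of the remainder in the second quantification went to shorter coding models, Myl2-209 with 20.6% in replicate 2 and 22.9% in replicate 1 and Myl2-212 with 14.1% and 11.1%. Coding transcripts of Myl2 summed to 242 TPM in replicate 2 and 238 TPM in replicate 1 in the second quantification, close to the first.

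Myl6 makes alternative carboxyl ends by inclusion of an exon of 45 bases (chr10:128491720-128491764), which Myl6-206 carries and Myl6-201 lacks. The human counterparts are known as the non-muscle and the smooth muscle form. The last coding bases and the stop codon are shown, on the minus strand of GRCm38, within chr10:128491736-128492070 with the exon and chr10:128491005-128492070 without it, and the last 12 bases common to both are in capitals.
Myl6-206: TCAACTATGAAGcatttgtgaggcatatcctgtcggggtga
Myl6-201: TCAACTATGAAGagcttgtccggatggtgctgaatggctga

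Both forms have 151 codons. Of the 6 coding transcripts of Myl6, Myl6-206 alone carries the exon, and it held 42.0% of their TPM in replicate 2 and 48.3% in replicate 1 in the first quantification. The second quantification gave it 75.0% in replicate 2 and 90.1% in replicate 1, and placed 53.5% and 53.9% of the whole gene on a retained-intron model, Myl6-212. The share of Myl6-206 among coding transcripts was thus higher in replicate 1 by both quantifications, which rest on the same libraries, while its level was not settled. The exon was not looked for in transcripts not annotated as coding, Myl6-212 among them, so inclusion over the whole gene was not measured.

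For the regulatory near copies, the first quantification placed 76.8% of Myl12a in replicate 2 and 74.8% in replicate 1 on Myl12a-210. The second gave Myl12a-208, listed at 0 in the first, the largest share, 42.3% and 41.1%. Posterior means, deposited with the first quantification as another estimate, gave Myl12a-210 62.5% in replicate 2 and 59.1% in replicate 1. They gave Myl12a-208 12.02% in replicate 2 and 14.45% in replicate 1, so the 0 holds for 1 of these estimates only. Both transcripts have 172 codons. Myl12b was led by the retained-intron model Myl12b-202, 369 bases long, with 73.6% in replicate 2 and 80.1% in replicate 1, and by the coding form Myl12b-204 in the second quantification, with 95.6% and 95.4%. Coding transcripts of Myl12b stood at 4.66 TPM in replicate 2 and 4.12 TPM in replicate 1 in the first quantification.

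**Figure D4:**
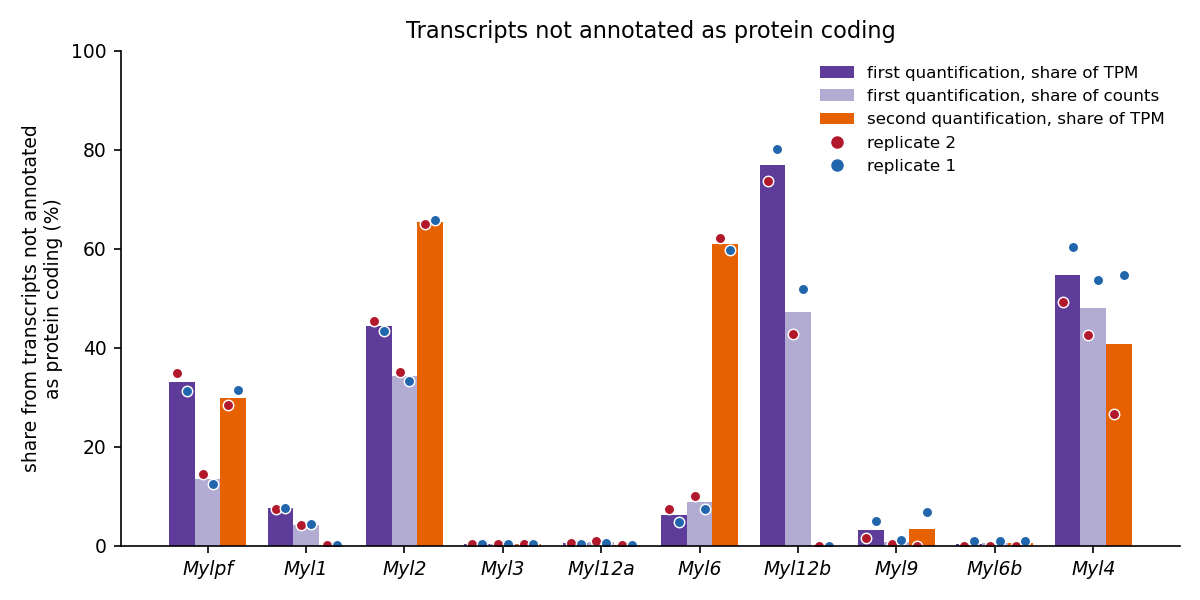
Share (percent) of each light chain gene held by transcripts not annotated as protein coding, as the mean of the animals (bars) with replicate 2 (red) and replicate 1 (blue), for TPM and counts of the first quantification and TPM of the second. The share exceeds 30% of first-quantification TPM in Mylpf, Myl2, Myl12b and Myl4 and is under 10% in the other 6 genes.

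Across the 10 genes the share of TPM from transcripts not annotated as protein coding ran widely in the first quantification. It was 34.9% in replicate 2 and 31.2% in replicate 1 for Mylpf and 45.4% and 43.4% for Myl2. For Myl12b it was 73.7% in replicate 2 and 80.1% in replicate 1, and for Myl4, a gene of few counts, 49.1% and 60.4%. The sarcomeric essential chains of the adult lay lower, with 7.36% in replicate 2 and 7.70% in replicate 1 for Myl1, and 0.331% in replicate 2 and 0.251% in replicate 1 for Myl3. The second quantification differed for some genes. It gave Myl12b 0 in both animals, and Myl6 62.2% in replicate 2 and 59.8% in replicate 1, against 7.40% and 4.84% in the first. Mylpf, with 28.4% in replicate 2 and 31.4% in replicate 1, and Myl2, with 65.1% and 65.9%, remained high.

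Between the animals, the ratios of the light chain genes lay within the range of most other genes. On the log2 scale of replicate 2 over replicate 1, after TMM scaling of library sizes, none of the 10 genes was 2-fold apart, beside 1.38% of the 11125 genes tested. At that background a count of 0 among 10 genes says nothing particular about them. Their median was -0.02, beside 0.00 for all genes tested. Mylpf stood at 0.00 and Myl1 at -0.04. Both lay within the central 50% of all genes, which ran between -0.14 and 0.11, as did Myl6 and Myl12a. The other 6 genes lay outside it, Myl12b by less than 0.01, and none lay outside the central 95%, between -0.67 and 0.53.

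Both slow chains lay above 0, with spike-in scaling as well. Myl3 had 9512 counts in replicate 2 and 7480 in replicate 1, a log2 ratio of 0.33 with a counting interval of 0.29 to 0.37. Myl2 had 6416 counts in replicate 2 and 5597 in replicate 1, a ratio of 0.18 with an interval of 0.13 to 0.23. Scaled by the spike-ins the ratios were 0.20 for Myl3 and 0.05 for Myl2, beside a median of -0.12 for all genes under that scaling. With TMM scaling all 5 slow fibre markers, Myh7, Tnnt1, Tnni1, Tnnc1 and Atp2a2, lay above 0, beside 5667 of the 11125 genes tested. The median of these markers was 0.29, or 0.17 with spike-in scaling, and they summed to 1155 TPM in replicate 2 and 1103 TPM in replicate 1. Their part in the ratios of Myl3 and Myl2 was not tested. Spike-in scaling shifted all genes downward alike, and put Mylpf at -0.13 and Myl12b at -0.01.

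Of the smooth muscle and non-muscle chains, Myl9 and Myl6b both stood at -0.18, Myl12a at -0.06 and Myl6 at -0.04, and the counting intervals of all 4 included 0. Myl12b stood at 0.11 by the first quantification and at -0.13 by the second, and Myl4 at 0.23 with an interval of -0.25 to 0.72. Only for Myl1, Myl2 and Myl3 did the counting interval exclude 0, and that interval covers counting error, not the spread between animals. It narrows as counts rise, so it can exclude 0 for a small ratio such as that of Myl1 at -0.04. The share of all genes tested whose interval excludes 0 is not given here, so these genes are not set apart by it. Beside these values, 6 of 6 fibroblast markers were lower in replicate 2, as were 4 of 5 endothelial markers. So were 4 of 6 smooth muscle markers tested and 2 of 4 pericyte markers, beside 5458 of all 11125 genes tested. Fibroblast markers summed to 105 TPM in replicate 2 and 149 TPM in replicate 1, sums that also hold the shift in 7SL RNA. Markers of Schwann cells, which myelinate nerves, were at least 2-fold lower in replicate 2 for 5 of 5 genes (12.1 and 54.5 TPM in sum), beside 78 of all 11125. Their part in the light chain ratios was not tested.

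**Figure D5:**
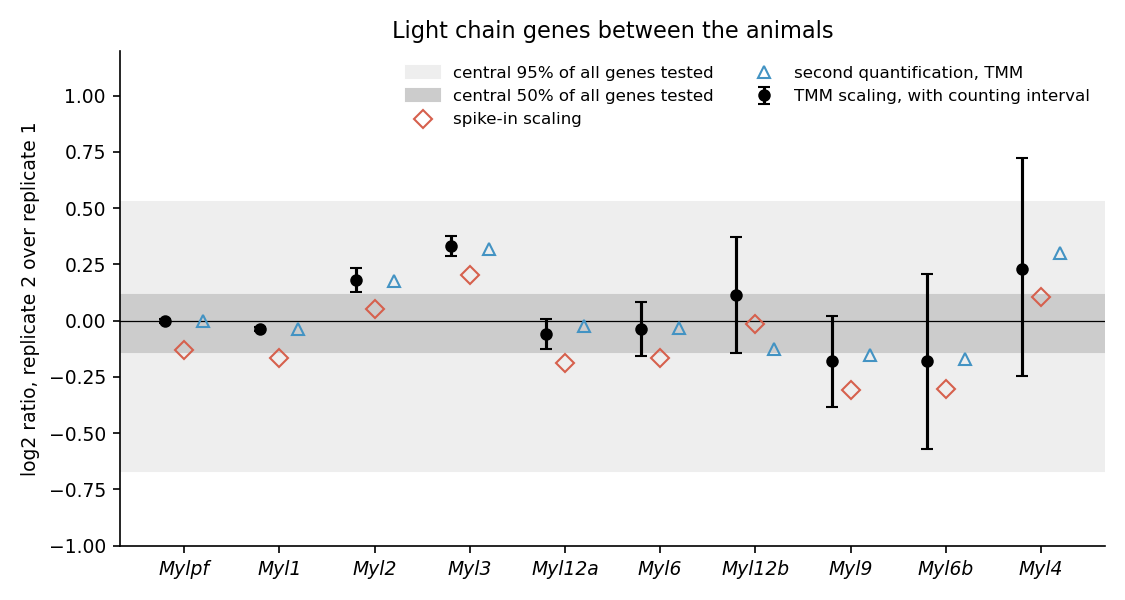
Log2 ratio of replicate 2 over replicate 1 for each light chain gene with TMM scaling and its 95% counting interval (black), with spike-in scaling (red diamonds) and by the second quantification (blue triangles); grey bands are the central 50% and 95% of all genes tested. Myl3 lies highest with TMM scaling at 0.33, within the central 95%, and spike-in scaling lowers every gene.

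The enzymes that act on regulatory chains were led by kinases of striated muscle. Of 14 genes for light chain kinases, the myosin phosphatase and the myosin chaperone, 12 reached 1 TPM in both animals. Of the 12 with enough counts to be tested, none was 2-fold apart between the animals, beside 1.38% of the 11125 genes tested. At that background a count of 0 says nothing particular about them. Mylk4, a member of the kinase family known from striated muscle, stood at 826 TPM in replicate 2 and 899 TPM in replicate 1. Mylk2, the skeletal muscle light chain kinase, stood at 307 TPM in replicate 2 and 333 TPM in replicate 1. Both exceeded Mylk, the smooth muscle and non-muscle kinase, at 5.68 TPM in replicate 2 and 8.62 TPM in replicate 1. Mylk3, the cardiac kinase, was lower still, at 0.58 TPM in replicate 2 and 0.39 TPM in replicate 1.

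The phosphatase was represented by its catalytic subunit Ppp1cb, at 183 TPM in replicate 2 and 198 TPM in replicate 1. Of its targeting subunits, Ppp1r12b, a form found in striated muscle, stood at 72.7 TPM in replicate 2 and 77.4 TPM in replicate 1. It was above Ppp1r12a, at 6.30 TPM in replicate 2 and 7.49 TPM in replicate 1, and Ppp1r12c, at 4.80 and 6.86 TPM. Rock2, a kinase that restrains the phosphatase, stood at 33.9 TPM in replicate 2 and 41.7 TPM in replicate 1, and Rock1 at 3.24 and 4.61 TPM. Unc45b, a chaperone that folds muscle myosin, stood at 81.9 TPM in replicate 2 and 93.9 TPM in replicate 1. Dapk3, a kinase that can phosphorylate regulatory chains, stood at 10.4 and 10.0 TPM, Stk17b, another such kinase, at 1.64 and 1.80 TPM, and Cit, the citron kinase of dividing cells, had counts of 26 in replicate 2 and 23 in replicate 1.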

How the data were processed

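Total RNA libraries of 2 animals were analysed, with 1 gene table and 2 transcript tables each. Per the deposited descriptions, the genome was mm10 and the annotation GENCODE M21, the first tables came from transcriptome alignments and the second directly from reads; which programs made them is not given in the sources used here. Expected counts, as deposited, estimate the reads of a gene or transcript, dividing reads that fit several. The deposited TPM values are counts over effective length, scaled by the authors to a fixed total over all features. The deposited percent values give the part of a gene's TPM held by each transcript. The authors' posterior SDs were read as a measure of shared reads.

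Symbols were mapped to gene IDs through the second transcript table, and where a symbol named 2 IDs the one with more counts was used. Coordinates, transcript classes and sequences came from GENCODE M21 (GRCm38). Expected counts were rounded, scaled by TMM in edgeR 4.0.16 (R 4.3.3) and turned into log2 CPM ratios with a prior count of 2, over genes averaging 50 or more expected counts. Counting intervals are 95% Clopper-Pearson; reads carry no molecular identifiers, so they cover counting error only. DESeq2 1.42.0 size factors and spike-in scaling were alternatives. On simulated counts for 11125 genes with a coefficient of variation set to 0.1, 100% of 200 genes changed 4-fold passed 2-fold and 1 unchanged gene did. Because that spread was chosen beforehand, this checks only that the ratios are computed correctly and gives no error rate for these animals. Members, lists and named genes (all members, kinases, heavy chains and markers) were chosen with earlier results of these data known. Allele of origin in these hybrids was not analysed here. Sequences were compared with Biopython 1.88 in Python 3.11.15.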

Additional observations from a re-analysis of the deposited data

How the results depend on the processing

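No paired analysis was possible because a single group was sequenced. Each ratio and share was recomputed under some of the alternatives, not under all of them. Ratios to heavy chains were not recomputed with expected counts or coding transcripts, and slow shares were not recomputed with posterior means. Shares of single leading transcripts were recomputed only by the second quantification and with posterior means. The cause of a change was not tested unless the alternative's construction shows it. Posterior means moved the non-muscle light over heavy chain ratio (4.96) to 4.70, none of the other ratios or the Myl1 start shares beyond 1 SD, and 2 of 10 gene levels. Among shares of leading transcripts, they moved Myl12a-210 (75.8%) to 60.8%, Myl4-204 (54.2%) to 44.3% and Myl9-201 (96.8%) to 88.95%. Those of Myl6, Myl3 and Myl6b also moved beyond 1 SD, and those of Myl1, Mylpf, Myl2 and Myl12b did not. Rescaling TPM over nuclear protein-coding genes moved 10 of 10 levels, as its smaller total must, for example Myl1 to 20985 and Myl2 to 920. The second quantification moved 4 of 10 levels and coding transcripts alone 4 of 10. The essential over regulatory ratio (0.677) was 0.623 by the second quantification, 1.08 with expected counts and 0.938 with coding transcripts only. The fast over slow ratio (31.5) was 22.1 by the second quantification and 27.7 with expected counts. The sarcomeric over non-muscle ratio (102) was 108 by the second quantification, 73.7 with expected counts, 85.7 with coding transcripts only and 148 without Myl9, Myl6 and Myl6b, which takes genes from its denominator. Light over heavy chains (1.72) gave 2.11 by the second quantification and 1.74 over Myh1, Myh2, Myh4 and Myh7 alone; the second quantification gave 0.814 for essential chains (0.699) and 1.30 for regulatory chains (1.03). The slow share of regulatory chains (2.88%) was 4.77% by the second quantification and 2.41% with coding transcripts only, and that of heavy chains (2.26%) was 2.48% and, with expected counts, 1.65%. The downstream share of Myl1 (83.9%) was 82.4% by the second quantification, 80.1% with expected counts and 82.9% without Myl1-204; the upstream share (14.2%) was 17.4%, 19.3% and 15.1%. The number of genes 2-fold apart between the animals (154) was 578 at a mean count of at least 10, since genes of low counts then enter, and between 108 and 183 under the others. Alternatives with coding transcripts only, those on the slow shares, and expected counts or removal of Myl1-204 for Myl1 were chosen after seeing the data. With 1 animal left out, the ratios in the order given ran 0.660 to 0.695, 28.9 to 34.2, 98.6 to 106, 1.72 to 1.73, 0.688 to 0.709 and 1.01 to 1.04. The slow shares ran 2.99 to 3.82% (essential), 2.74 to 3.03% (regulatory) and 2.17 to 2.36% (heavy), and the Myl1 shares 83.8 to 84.0% and 14.2 to 14.3%. Between animals, the sign of the ratio was kept by 10 of 10 genes with DESeq2 size factors and 8 by the second quantification; spike-in scaling lowers all genes alike, so the signs it keeps do not measure stability, and the ratio of TPM, which holds the shift in 7SL RNA, kept 7. Depth limits Myl4 and Myl6b, with counts of 120 or fewer.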
